A study of Mus musculus with 10 samples.

Results

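Membrane-bound mucins are large glycoproteins that sit in the apical membrane of epithelial cells. Their long extracellular domains are rich in threonine and serine, carry dense O-linked glycans and form the glycocalyx, the coat under the secreted mucus layer of the colon. Many are split at a SEA domain and shed by proteases, and their short cytoplasmic tails bind kinases and scaffold proteins. The 5 genes Muc1, Muc3, Muc4, Muc13 and Muc20 were followed here. They were chosen by name among 25160 named genes, as all non-control probes of the array annotated to these symbols, which gave 12 of 56605 probes: 1 for Muc1, 3 for Muc3, 4 for Muc4, 2 for Muc13 and 2 for Muc20.

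The arrays compared RNA of mouse colon with and without Trp53, the gene of the transcription factor p53, which halts the cell cycle or triggers death after damage. Whole colon came from 2 KO and 2 WT male mice, the KO carrying Axin2CreERT2, a tamoxifen-inducible recombinase active where Axin2 is expressed, and floxed Trp53. Deletion was induced with injected tamoxifen and reaches only cells with the active recombinase and their progeny. All mice drank 2% dextran sodium sulfate (DSS), a chemical that damages the gut lining, over 5 to 7 days, and recovered for 2 months. Colon organoids, cultures of epithelium grown from crypts, were KOWI, KO or WT with 2 samples each. They came from mice with VillinCreERT2, active in gut epithelium, and floxed Trp53. Trp53 was deleted in culture by 2 days of 800 nM 4OH-tamoxifen. Nutlin-3A, which arrests cells that keep p53, then served to select KO cultures that were genotyped as pure. The labels do not say whether WT mice or WT cultures carry the recombinase or had tamoxifen. KO and WT organoids grew in medium with a Wnt surrogate (sWnt, 0.328 nM), the GSK3 inhibitor CHIR (3 µM), R-spondin, noggin and EGF. KOWI organoids are KO organoids called Wnt-independent in the labels, grown with neither sWnt nor CHIR, so medium, adaptation and selection cannot be told apart in them. The labels list R-spondin, noggin and EGF for all organoid arrays, those that held KOWI among them.

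Each of 10 two-colour arrays gave the ratio of a pair of samples. In tissue, 4 arrays held 2 KO and WT mouse pairs in both dye orientations. In organoids, 6 arrays formed a loop over the 6 samples, with every replicate 1 in Cy3 and every replicate 2 in Cy5. Dye and replicate are therefore 1 factor in organoids. The labels do not say that organoid replicates came from separate mice, so organoid p-values rest on a spread that may be technical. The 4 arrays that held a KOWI sample stood apart: 13.7% to 16.3% of their spots were marked as outliers by the scanner software, against 0.808% and 2.18% on the KO and WT organoid arrays. In a channel, 44.6% to 59.1% of spots were well above background. The Trp53 probe had log2 KO over WT of -0.46 and 0.04 in the tissue pairs and a mean of -0.83 in organoids. Whether it lies in the deleted stretch was not checked, so it may not report the deletion. All 10 general epithelium markers were measured in both experiments. Of the endothelium markers 3 of 4 passed the filter in tissue and 0 of 4 in organoids. In organoids 2 of 9 leukocyte, 2 of 6 smooth muscle, 3 of 7 skeletal muscle and 1 of 8 fibroblast markers passed. In tissue these were 5 of 9, 6 of 6, 6 of 7 and 7 of 8.

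The probes that carry the findings differ in what part of a mucin transcript they read. The Muc1 probe lies on mm9 chromosome 3 from 89036007 to 89036974 on the plus strand, a span of 968 bases for an oligonucleotide of 60, so it crosses an intron. Muc3 has probes on the minus strand of chromosome 5. Probe 1 (137634621 to 137634680) and probe 2 (137626469 to 137626528) read repeat-like stretches, and probe 3 (137610855 to 137610914) reads the 3′ part, at position 5853 of the transcript against 3013 for probe 2. The sequences of the Muc1 probe and of Muc3 probes 1 and 2 are shown to set a probe across an exon junction beside repeat-like ones. Capitals mark the runs of at least 9 bases that the Muc3 probes share, 19 of 60 bases in each.
Muc1 probe 1: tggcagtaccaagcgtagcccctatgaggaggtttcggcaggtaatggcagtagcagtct
Muc3 probe 1: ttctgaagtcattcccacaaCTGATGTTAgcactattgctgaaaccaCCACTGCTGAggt
Muc3 probe 2: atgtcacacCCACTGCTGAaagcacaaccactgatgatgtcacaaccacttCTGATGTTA

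Such repeats can be shared between mucin genes, so signal at Muc3 probe 2 is uncertain in origin. Muc3 probe 1 was not well above background in any channel and gave no measurement. The other members lie on chromosome 16. Muc4 probes 2, 3 and 4 are on the plus strand at 32774896 to 32774955, 32778845 to 32778904 and 32782278 to 32782337, in that order along the transcript (positions 9726, 10251 and 11077). Muc20 probe 1 (32777512 to 32777571) and probe 2 (32786143 to 32786202) are on the minus strand, and RefSeq places the ends of Muc4 and Muc20 tail to tail with an overlap. Muc13 probes 1 and 2, at 33819463 to 33819522 and 33819909 to 33819968 on the plus strand, read neighbouring stretches of its transcript (positions 2418 and 2864). Muc4 probe 1, which the array annotation does not place on the genome, was dim.

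Of the 12 probes, 7 passed the filter in organoids and 9 in tissue, and 0 of their spots were saturated. To pass, a probe needed a signal well above background in all channels of 1 group or more, and enough spots free of outlier marks. Muc3 probe 1, Muc4 probe 1 and Muc20 probe 1 passed in neither experiment. Muc4 probe 2 was not well above background in any organoid channel. Muc20 probe 2 was well above background everywhere but was marked as an outlier on both arrays that held KOWI replicate 1, so the organoid fit left it out. Values are log2 intensities after normalization (levels) or differences between them (log2 ratios). A level can be set against the same probe in other samples of the experiment, and not against another probe. How many probes of the array had groups of 2 that lie wholly apart was not counted, so such separation is description only.

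Muc3, the heavily glycosylated mucin of the enterocyte brush border, was the member that fell in Wnt-independent organoids. Probe 3 stood at levels of 12.06 and 11.7 in KOWI, against 15.19 and 14.93 in KO and 15.82 and 15.71 in WT. Probe 2 stood at 8.08 and 8.228 in KOWI, 9.545 and 9.722 in KO, and 10.01 and 10.14 in WT. Both probes had the order KOWI, KO, WT from low to high in each replicate.

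Against WT, Muc3 probe 3 fell 14.8-fold in KOWI (log2 -3.88, SE 0.174, 95% interval -4.30 to -3.46, n = 2 each, limma adjusted p = 0.00488). It was the 3rd lowest of 18354 probes tested. Muc3 probe 2 fell 3.78-fold (log2 -1.92, SE 0.166, limma adjusted p = 0.0107). So 2 of 7 member probes, both of Muc3, were called lower in KOWI over WT, where 1.72% of all probes were called lower and 4.44% in either direction. None of the 7 was called higher. The member median was -0.638, against 0.0228 over all probes.

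Against KO organoids, Muc3 probe 3 fell 9.05-fold in KOWI (log2 -3.18, SE 0.174, limma adjusted p = 0.0124, the 7th lowest probe) and probe 2 fell 2.79-fold (log2 -1.48, SE 0.166, limma adjusted p = 0.0382). These were the member calls in KOWI over KO, 2 of 7, with 0.262% of all probes called lower and 0.425% in either direction. All 7 member values were negative there, with a median of -0.854 against -0.0252 over all probes. Muc20 is not among these 7 probes. The fits that could include its probe 2 gave positive log2 KOWI over KO: 0.40 with outlier spots kept, 0.44 in the authors' value table and 0.69 without KOWI replicate 1. KOWI over WT and KOWI over KO share the KOWI samples, so their values do not count as separate evidence.

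Muc3 probe 3 was lower in KOWI on all 4 arrays that held a KOWI sample, while its call was not made in every setting. Turned to KOWI on top, Muc3 probe 3 had log2 ratios of -3.92 and -3.45 on the arrays of KOWI against WT and -3.69 and -3.06 on those of KOWI against KO. With the scanner software's own log ratios it was -3.99 against WT (limma adjusted p = 0.0558), and with the authors' value table -3.92 (limma adjusted p = 0.107). Under both settings 0 probes were called in KOWI over WT, while 3438 and 3526 probes had an unadjusted p under 0.05. Probe 2 had a larger difference with those ratios, -2.68 and -2.55. Against WT, the probe 2 call was lost under both (limma adjusted p = 0.0562 and 0.107), with outlier spots kept (0.0538), without KOWI replicate 2 (0.0825) and without WT replicate 1 (0.0796). Against KO, the probe 3 call was lost with the scanner ratios (limma adjusted p = 0.111), with the authors' value table (0.267), with outlier spots kept (0.113) and without KOWI replicate 2 (log2 -2.99, 0.147), and the probe 2 call in 8 of 13 other settings (log2 -2.21 to -1.43, limma adjusted p up to 0.353).

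**Figure D1:**
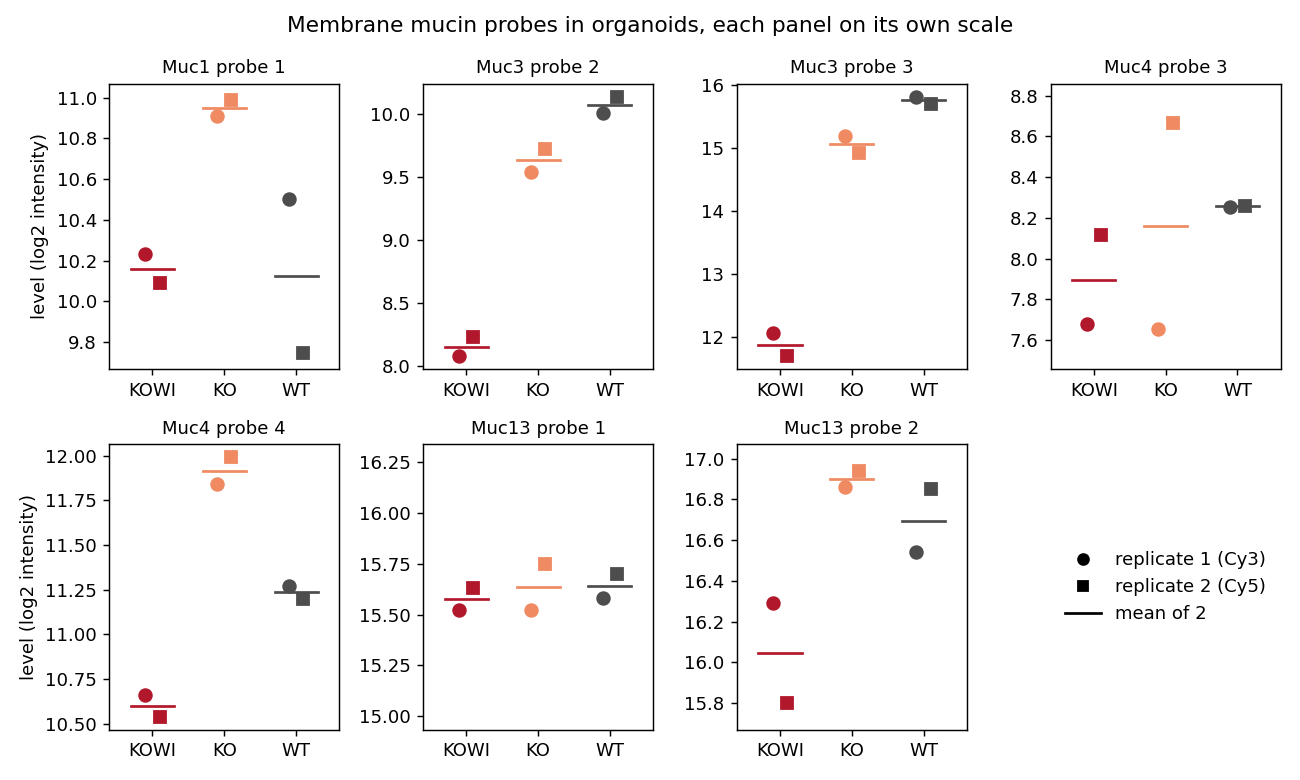
Levels (log2 intensity, vertical axis, each panel on its own scale) of the 7 member probes tested in organoids, in KOWI, KO and WT. Circles are replicate 1 (Cy3), squares replicate 2 (Cy5) and lines the mean of 2. Both Muc3 probes stand lowest in KOWI, with probe 3 at 12.06 and 11.7 against 15.82 and 15.71 in WT, and Muc4 probe 4 stands highest in KO.

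In organoids with Trp53 deleted and Wnt activators present, Muc3 was not called. Probe 3 had log2 KO over WT of -0.63 in replicate 1 and -0.78 in replicate 2 (mean -0.70, SE 0.174, 95% interval -1.13 to -0.28, limma adjusted p = 0.715). Probe 2 had -0.46 and -0.41 (mean -0.44, limma adjusted p = 1). No probe of the array was called in KO over WT (0%; 834 of 18354 had an unadjusted p under 0.05), and the smallest limma adjusted p was 0.0514. Of the 7 member probes 3 were positive and 4 negative.

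A separate gene named Muc3a, which is no member and was picked after its values were seen, has a probe of its own. Its log2 ratio was -1.24 in KOWI over WT (SE 0.238, limma adjusted p = 0.0457) and -1.45 in KOWI over KO (limma adjusted p = 0.0727). In KO over WT it was 0.21. Whether the Muc3 and Muc3a probes read each other's transcripts was not tested.

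The promoter of Muc3 is shown because Muc3 is the member that was called. The window holds the 250 bases before the start of the gene in RefSeq, on GRCm38.p6 at chr5:137166047-137166296, minus strand, read 5′ to 3′ along the gene. Capitals mark AGGTCA followed, after 1 free base, by AGGTC, a direct repeat of the half-site bound by nuclear receptors such as HNF4A. In these letters the free base is A, and a T follows the second copy, so a full direct repeat is absent.
Muc3: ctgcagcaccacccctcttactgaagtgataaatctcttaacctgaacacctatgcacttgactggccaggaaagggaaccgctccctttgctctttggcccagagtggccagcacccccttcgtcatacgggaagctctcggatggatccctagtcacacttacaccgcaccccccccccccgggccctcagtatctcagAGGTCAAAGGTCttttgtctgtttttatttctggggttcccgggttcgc

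This incomplete repeat begins 49 bases before the start on the gene's own strand. It was searched after the window had been read, so how rare it is in other windows cannot serve as a test. On both strands it occurs in 25 of 32851 RefSeq windows of this length (0.0761%), and the half-site AGGTCA, which it contains, in 4607 windows. No other member window held this incomplete repeat. AGGTCA alone occurred in both annotated Muc13 windows. The CDX letters TTTATG and the HNF1 letters GTTAAT occurred in 1 Muc13 window each, and are found in 10.8% and 6.43% of windows. The TCF/LEF letters CTTTGAT (3.21% of windows) occurred in none of the 6 member windows. The GC box GGGCGGG, in 23.4% of windows, occurred in the Muc1 window. These are letter matches in a short window and describe no binding. The transcript of Hnf4a, named only because of these letters, had a log2 KOWI over WT of -0.53 (SE 0.251, limma adjusted p = 0.295). It was not called, and a part of HNF4A in the Muc3 values was not tested.

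Muc4, a long mucin whose EGF-like domains bind the receptor ERBB2, was measured by probes 3 and 4 in organoids. Probe 4 levels were 10.66 and 10.54 in KOWI, against 11.84 and 11.99 in KO and 11.27 and 11.2 in WT. In each replicate KO was highest and KOWI lowest. The log2 ratio was -1.32 in KOWI over KO (SE 0.177, 95% interval -1.75 to -0.89), and its limma adjusted p of 0.0562 missed the threshold. It passed without the replicate term (limma adjusted p = 0.0458), without KO replicate 1 (0.0289), without WT replicate 2 (0.0241) and with arrays taken as independent. It missed in the other 10 of 14 settings, among them the scanner ratios (limma adjusted p = 0.172), the authors' value table (0.338), outlier spots kept (0.226), without KOWI replicate 2 (0.295) and without KO replicate 2 (0.614). Against WT, the probe 4 values were -0.64 in KOWI (SE 0.177, limma adjusted p = 0.107) and 0.68 in KO (SE 0.177, limma adjusted p = 0.762).

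Muc4 probe 3, which reads the transcript upstream of probe 4, did not show this. It stood at 7.677 and 8.116 in KOWI, 7.653 and 8.665 in KO, and 8.255 and 8.259 in WT. The KOWI and KO samples overlapped, and its log2 KOWI over KO was -0.26 (SE 0.263, 95% interval -0.90 to 0.38). The estimates of the 2 Muc4 probes thus differed in size, with intervals that overlap slightly. A difference between the probes was not tested. Probe 3 was dim in organoids, with raw Cy3 signals of 65.32 to 132.1. With the scanner software's ratios its log2 KOWI over KO was -0.48. Whether its dimness reduced the ratio was not tested. Whether probe 4 also reads the overlapping Muc20 transcript was not tested; its letters are annotated to the Muc4 strand.

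Muc13, a mucin with EGF-like domains found across the colon epithelium, was bright in every sample. Probe 2 stood at 16.29 and 15.8 in KOWI, 16.86 and 16.94 in KO, and 16.54 and 16.85 in WT, so both KOWI samples lay below all others. Its log2 ratio was -0.85 in KOWI over KO (SE 0.235, limma adjusted p = 0.2) and -0.65 in KOWI over WT (SE 0.235, limma adjusted p = 0.186). In KO over WT it was 0.20 (limma adjusted p = 1).

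Muc13 probe 1 was flat, at 15.52 and 15.63 in KOWI, 15.52 and 15.75 in KO and 15.58 and 15.7 in WT. Its log2 ratio was between -0.07 and 0.00 in all 3 contrasts, each with an SE of 0.168, so the interval in KOWI over WT, -0.47 to 0.34, still overlaps that of probe 2. Its raw signal was less steady than its ratio. The background-subtracted Cy3 signal of WT replicate 1 was 3539 on one array and 37890 on the other, a 10.7-fold difference for the same sample, against a median of 1.85-fold over all probes tested. The difference was 9.53-fold in WT replicate 2, 8.33-fold in KO replicate 2 and 3.22-fold in KO replicate 1, against 1.66-fold and 1.65-fold in the KOWI samples. In KO and WT samples the lower signal was on the arrays of KO against WT. The cause of these differences was not tested, and they weaken probe 1 as a reading of Muc13. Probe 1 was also marked as an outlier on the array of KOWI replicate 1 against KO replicate 2, which its fit left out.

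Muc1, which has a tandem repeat domain and a tail that binds beta-catenin and SRC, stood at 10.23 and 10.09 in KOWI, 10.91 and 10.99 in KO, and 10.5 and 9.747 in WT. Both KO samples lay above all others, and the WT samples lay on either side of the KOWI ones. The log2 ratio was 0.83 in KO over WT (0.41 and 1.24 in the replicates, SE 0.241, limma adjusted p = 0.907). It was -0.79 in KOWI over KO (SE 0.241, limma adjusted p = 0.242) and 0.04 in KOWI over WT (limma adjusted p = 0.962). These did not pass the test.

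Muc20, a small mucin that binds the receptor MET in human cells, could be read in organoids only array by array. On the arrays free of outlier marks, probe 2 had log2 ratios of 1.18 for KOWI replicate 2 over WT replicate 1 and 0.69 for KOWI replicate 2 over KO replicate 1. KO over WT was 0.49 and 0.50 (2 arrays). All 4 ratios were positive and the WT end was the lowest. With outlier spots kept, the KOWI replicate 1 ratios were 0.51 over WT and 0.34 over KO. The fits that could include the probe gave log2 KOWI over WT of 0.85 with outlier spots kept (limma adjusted p = 0.176), 1.18 without KOWI replicate 1 (limma adjusted p = 0.0875) and 0.97 in the authors' value table (limma adjusted p = 0.269). No call was made under any of them.

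**Figure D2:**
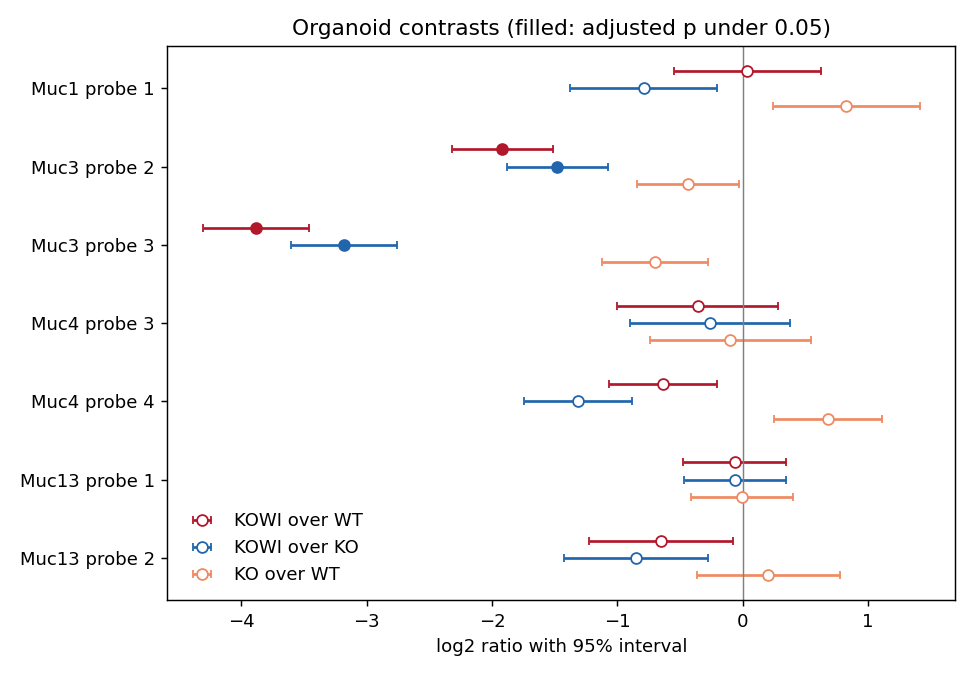
Log2 ratios of the 7 member probes in the 3 organoid contrasts (horizontal axis), with 95% intervals from the limma fit of 2 samples a group. Filled points passed a limma adjusted p of 0.05, which only the Muc3 probes did, at -3.88 and -1.92 in KOWI over WT and -3.18 and -1.48 in KOWI over KO.

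The members did not share 1 pattern over the 6 organoid samples. As a description, the Muc3 probes correlated at 0.985 with each other, Muc3 probe 3 at 0.847 with Muc13 probe 2 and at 0.75 with Muc4 probe 4, and Muc1 at 0.279 with Muc3 probe 3. The samples share arrays and dyes, and 6 values in 3 groups allow many high correlations. Among 2938 genes that varied by at least 1 on the log2 scale, those most like Muc3 were Syce3 (r = 0.997), A430035B10Rik, Sucla2, Serpinb1a and Acot4. Those most like Muc4 were Ccdc92b (r = 0.985), Fbln1, D630039A03Rik, Gne and Rep15. Muc13 was nearest to 9130204K15Rik (r = 0.989), Mrpl36, Ccdc28b, Gm15972 and E2f2, and Muc1 to Ror2 (r = 0.943), Mcf2l, Tppp3, Reg3b and Zdhhc2.

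Of 15 measured genes of the apical membrane and brush border, the compartment of these mucins, 8 were called lower in KOWI over WT organoids. Of all probes, 1.72% were called lower there. All 15 were negative, with a median of -1.23 against 0.0199 over all genes. The largest were Aqp8, a water channel (log2 -3.78, SE 0.296, limma adjusted p = 0.00747), Slc9a3, a sodium-proton exchanger (-3.65, SE 0.279, 0.00686), Tmigd1 (-3.11, SE 0.467, 0.0268) and Car4, a carbonic anhydrase (-1.58, SE 0.257, 0.0319). In KOWI over KO, where 0.262% of all probes were called lower, 14 of 15 were negative and 2 were called lower, Aqp8 at -3.28 and Slc9a3 at -3.05. In KO over WT all 15 were negative with a median of -0.493, and 0 were called. These calls, too, are absent with the scanner software's log ratios and the authors' value table, where 0 probes passed. Without KOWI replicate 2, 20 probes of the array were called in KOWI over WT and 0 in KOWI over KO, where 1461 had an unadjusted p under 0.05 in limma.

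Goblet cell markers, which go with secreted mucus, had another order of groups, with KO highest by their sum. In KOWI over KO all 10 were negative (median -1.09) and 3 were called lower: Spdef, the goblet transcription factor (-1.97), Rep15 (-1.63) and Fcgbp, a mucus protein (-1.62). In KOWI over WT 9 of 10 were negative and the same 3 genes were called. Of all probes, 0.262% were called lower in KOWI over KO and 1.72% in KOWI over WT. In KO over WT 9 of 10 goblet markers were positive with a median of 0.51 and 0 called. Their summed intensity, in units of 10 to the power 3, was 220 and 199 in KOWI, 268 and 339 in KO, and 231 and 290 in WT. That of the general epithelium markers was 513 and 439 in KOWI, 498 and 565 in KO, and 552 and 597 in WT. Of these 10 general epithelium markers, 8 were negative in KOWI over WT (median -0.194), and 1 was called lower. Squamous epithelium markers were positive for 8 of 9 genes in KOWI over WT by their mean, with 0 called, but the replicates differed. In replicate 1, 5 of 9 were positive (median 0.0336), and in replicate 2, 8 of 9 (median 0.874). Their summed intensity was 44 and 68.6 in KOWI, 68.5 and 44.1 in KO, and 65.1 and 33.7 in WT. The part of these cell types in the mucin values was not tested. In bulk samples, fewer cells of a type and less RNA per cell cannot be told apart.

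The genes that modify or bind these mucins were not called in any contrast. Of 15 O-glycosylation enzymes measured in organoids, 4 were positive and 11 negative in KOWI over WT (median -0.205), from Galnt3 at 0.68, which attaches the first sugar, to its relative Galnt6 at -0.90. Of 16 partners, 7 were positive and 9 negative (median -0.15), from the receptor gene Met at 0.69 (limma adjusted p = 0.102) to the lectin gene Lgals4 at -0.84 (limma adjusted p = 0.0836). Among 11 transcription factors known to act on such genes, 2 were called lower, against 1.72% of all probes. These were Klf4 (log2 -1.38, SE 0.167, limma adjusted p = 0.0182) and Spdef (-1.22, SE 0.233, 0.0457). Other mucins gave little: Muc2, the main secreted mucin of the colon, had log2 ratios of -0.24 in KOWI over WT and 0.08 in KO over WT. The transmembrane mucin gene Muc16 had 1.34 in KOWI over WT with 0.72 and 1.96 in the replicates (SE 0.588, limma adjusted p = 0.26).

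**Figure D3:**
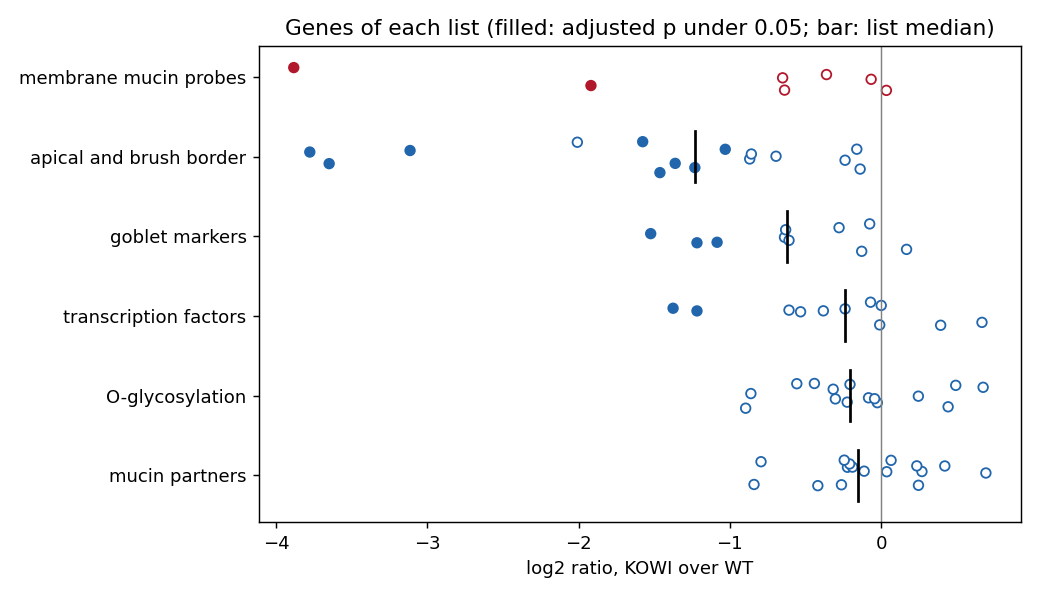
Log2 KOWI over WT (horizontal axis) of the 7 member probes and of the genes of 5 lists, 1 point each, with bars at list medians and filled points for a limma adjusted p under 0.05. The Muc3 probes at -3.88 and -1.92 stand beside the apical and brush border genes, which run from -3.78 to -0.138 with a median of -1.23, and the other 5 member probes lie between -0.65 and 0.04.

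In colon tissue 2 months after DSS, 0 of 9 member probes were called in KO over WT. No probe of the array was (0% of 21088; 2961 had an unadjusted p under 0.05), and the smallest limma adjusted p was 0.286. The member median was 0.0813 against -0.00928 over all probes, with 5 probes positive and 4 negative. Among the positive ones, Muc4 probe 2 passed the filter only through the KO mice.

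Muc20 had the largest tissue value. Probe 2 stood at 11.8 and 11.53 in the KO mice, against 9.664 and 11.08 in the WT mice. WT mouse 1 was far below the rest. The pair log2 ratios were 2.13 and 0.45 (mean 1.29, SE 0.509, 95% interval -0.40 to 2.98, limma adjusted p = 0.416). Its mean ranked 115th from the top of 21088 probes. Without WT mouse 1 it was 0.59, and without WT mouse 2 it was 2.00.

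The same mouse was low for Muc4. Probe 4 stood at 14.91 and 14.97 in the KO mice, against 14.26 and 15.09 in the WT mice. The KO mice lay between the WT mice. The pair ratios of probes 2, 3 and 4 were 0.78, 0.87 and 0.65 in pair 1 and -0.12, -0.14 and -0.12 in pair 2, so the probes were alike within each pair and the pairs differed in sign (limma adjusted p between 0.645 and 0.668). Without WT mouse 1 all 3 turned negative, at -0.12, -0.20 and -0.14. Muc4 probe 2 passed the filter only through the KO mice, with 4 of 4 KO channels and 3 of 4 WT channels well above background. Its values are therefore description and add no support to those of probes 3 and 4.

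Markers of other cell types differed between the pairs too, some with the larger ratios in pair 1 and some in pair 2. The transmembrane mucin gene Muc15 had 2.85 and 0.25 in the pairs. Squamous epithelium markers were positive for 12 of 12 genes in pair 1 (median 0.394) and 9 of 12 in pair 2 (median 0.0909). Their summed intensity, in the same units, was 821 and 888 in the KO mice, against 650 and 838 in the WT mice, so WT mouse 1 was again the lowest. General epithelium markers summed to 799 and 742 in the KO mice, against 892 and 791 in the WT mice. Skeletal muscle markers were positive for 6 of 6 genes in both pairs (medians 0.467 and 0.236), and smooth muscle markers for 6 and 5 of 6 (0.242 and 0.0795). Fibroblast, leukocyte and endothelium markers had the higher medians in pair 2: 0.0406 and 0.229 for 7 fibroblast genes, 0.0575 and 0.44 for 5 leukocyte genes, and -0.0355 and 0.917 for 3 endothelium genes, pair 1 before pair 2. Of the 14 squamous and 7 skeletal muscle markers, 2 and 1 did not pass the filter. The part of these cell types in the Muc4 and Muc20 values was not tested.

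Muc3 and Muc13 were on the lower side in the KO mice. Muc3 probe 2 stood at 8.963 and 9.672 in the KO mice, against 9.679 and 10.12 in the WT mice (pair ratios -0.72 and -0.45, mean -0.58, SE 0.103, limma adjusted p = 0.292). Both pairs were negative, and KO mouse 2 reached the level of WT mouse 1. Muc3 probe 3 stood at 16.99 and 16.99 in the KO mice, against 17.13 and 17.04 in the WT mice, with a mean ratio of -0.09 (SE 0.0705, limma adjusted p = 0.61). Its sign turned with the dye: with KO in Cy5 it was 0.10 and 0.35, and with KO in Cy3 it was -0.38 and -0.45. At this brightness ratios were small in general. The median absolute ratio of the 351 probes within 0.5 of its level was 0.0232, against 0.104 over all probes.

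Muc13 probe 2 stood at 16.58 and 16.47 in the KO mice, against 16.93 and 16.68 in the WT mice. All 4 arrays gave a negative ratio (mean -0.28, SE 0.0773, 95% interval -0.54 to -0.03, limma adjusted p = 0.342). Probe 1 had -0.16 and -0.09 in the pairs (limma adjusted p = 0.5). Muc1 stood at 8.689 and 8.389 in the KO mice, against 8.635 and 8.28 in the WT mice, with ratios of 0.05 and 0.11 (mean 0.08, SE 0.0664, 95% interval -0.14 to 0.30, limma adjusted p = 0.638).

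**Figure D4:**
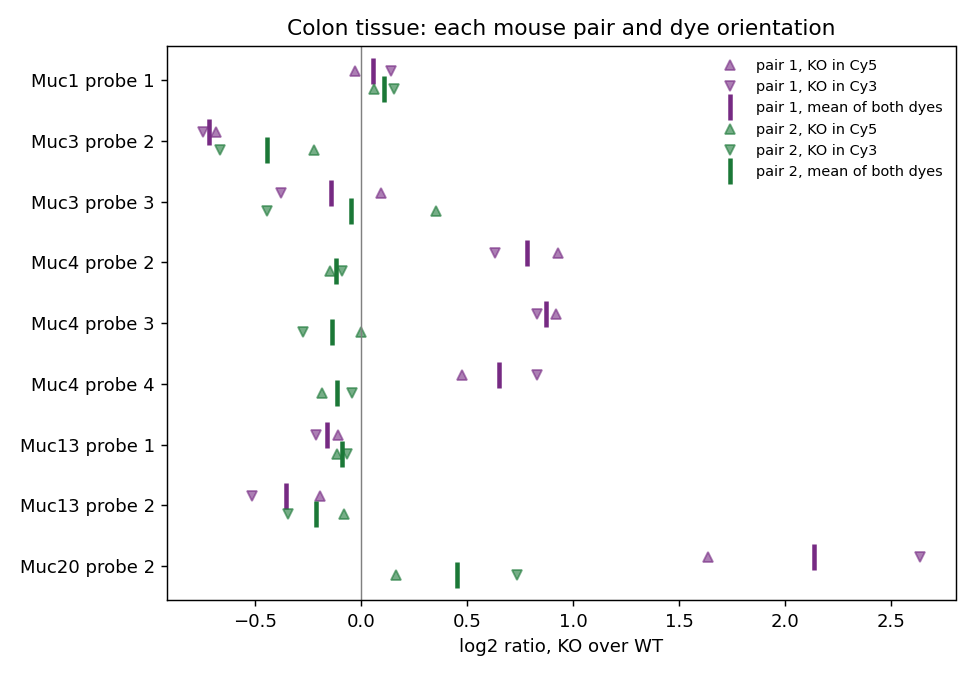
Log2 KO over WT in colon tissue (horizontal axis) of the 9 member probes tested, for each of 2 mouse pairs. Triangles are single arrays, pointing up with KO in Cy5 and down with KO in Cy3, and bars are the mean of both dyes. Muc20 probe 2 has 2.13 in pair 1 and 0.45 in pair 2, the Muc4 probes are positive in pair 1 alone, and Muc3 probe 3 changes sign with the dye.

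Lists of columnar gut epithelium and of other cell types had opposite signs in tissue, with 0 genes called in any. Goblet cell markers were negative for 10 of 10 genes (median -0.306), apical and brush border genes for 16 of 17 (median -0.271), from Tmigd1 at 0.40 to Slc9a3 at -2.03. O-glycosylation enzymes were negative for 13 of 15 (median -0.317), from St3gal1 at 0.41 to Gcnt3 at -1.0, which builds branched cores of mucin glycans (-1.06 and -0.95 in the pairs, SE 0.0734, limma adjusted p = 0.286). Mucin partners were even, 9 positive and 8 negative with a median of 0.00604. Muc2 had -0.11. The median over all genes was -0.00494. General epithelium markers were negative for 10 of 10 genes (median -0.12). The squamous list was positive for 12 of 12 genes (median 0.26), fibroblast for 7 of 7 (0.135), smooth muscle for 6 of 6 (0.148), skeletal muscle for 6 of 6 (0.359), endothelium for 3 of 3 (0.376) and leukocyte markers for 4 of 5 (0.248). The part of cell type makeup in the Muc3 and Muc13 values was not tested.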

How the data were processed

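Per the file headers, the authors scanned 2-colour arrays (design 074809) and deposited spot intensity from Agilent Feature Extraction 12.2.0.7: mean and background intensity without normalization, processed intensity that was background-subtracted and dye-normalized, and a log10 ratio of Cy5 over Cy3. The authors' deposited value table holds a log2 ratio, Cy5 over Cy3. The submitters' processing notes name limma. Its slope on the scanner ratios was 0.967 to 0.999, and its centring is not given in the sources used here (column medians -0.000581 to 0.0171).

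Ratios were made with limma 3.58.1 under R 4.3.3: normexp background correction (offset 50), then loess within arrays. Control spots had no weight and outlier spots were set to missing. Of 62976 spots, 3671 were controls. The filter on dim probes asked for a signal well above background in all channels of 1 group or more. In tissue, dye orientations were averaged per mouse pair and 2 pair ratios tested against 0. In organoids, least squares gave 6 sample values, with at most 1 array missing, which were fitted by group and replicate. P-values were adjusted by Benjamini-Hochberg over all probes, threshold 0.05. The fits were tested on simulated data. The number of arrays limits the precision. Tissue and organoid arrays were separate experiments, each scanned within 1 day, so levels were not set across them.

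In 1 tissue label the Cy3 replicate number differs from the title, which was followed. Coordinates are mm9, from the array annotation. Gene names came from RefSeq, by accession for 35405 of 56605 probes, by symbol for 9124 and through a synonym for 25. Promoter windows are RefSeq's on GRCm38.p6, and all 5 members matched. All member probes are named. The genes named from a list are those called, at most the 4 largest per contrast, or else the highest and the lowest. Not every list and contrast has its genes named, and the general epithelium marker called in KOWI over WT is not. The 5 genes most alike by correlation are named too. Hnf4a was named outside this rule. Members and lists were chosen with earlier results of these data known. The alternatives tried were no background subtraction, the scanner and authors' ratios, no filter and outlier spots kept. Others were arrays as independent, 1 probe a gene, no replicate block and each sample left out.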

Additional observations from a re-analysis of the deposited data

Results flagged for a closer look

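Muc13 probe 2 had opposite signs in the tissue and organoid comparisons of KO with WT. Its log2 KO over WT was negative in both tissue pairs (mean -0.28) and positive in both organoid replicates (mean 0.20), a tissue minus organoid difference of -0.49. The difference was not tested, since tissue and organoid arrays were separate experiments, and neither mean was called. Without WT replicate 1 the organoid value was -0.028. Muc13 probe 1 did not show opposite signs, at -0.13 in tissue and -0.005 in organoids. Probe 2 was flagged for its opposite signs, so they are no test.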

How the results depend on the processing

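With arrays taken as independent, which counts each sample more than once, 1030 probes were called in tissue, 1000 in organoid KO over WT, 6005 in KOWI over WT and 3724 in KOWI over KO. Other settings moved the KOWI over WT count of 815 to 0 (scanner ratios), 0 (authors' table), 199 (no filter) and 15 (outlier spots kept), and the KOWI over KO count of 78 to 0, 0, 2 and 0, with 50 for 1 probe a gene. Leaving out 1 sample gave 0 to 22 probes in KO over WT (22 without KO replicate 1), 20 to 1227 in KOWI over WT (20 without KOWI replicate 2, 69 without WT replicate 1, 216 without WT replicate 2, 362 without KOWI replicate 1, 489 without KO replicate 2) and 0 to 356 in KOWI over KO (0 without KOWI replicate 2, 237 without KO replicate 1, 356 without WT replicate 2). Without the replicate block, the counts were 0 in tissue, 0 in KO over WT, 564 in KOWI over WT and 63 in KOWI over KO. That block changed no member call except Muc4 probe 4 in KOWI over KO. For the member probes, 323 of the repeats kept direction and side of the threshold, 19 lost a call, 13 gained one and 19 changed sign; the cause was not tested. Both Muc3 probes stayed negative in every contrast and setting run. Muc3 probe 3 ranged from -4.08 to -3.68 in KOWI over WT and from -3.38 to -2.99 in KOWI over KO.

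The sign changes were all in values that were not called. Over the fits that left out 1 sample, tissue Muc1 ranged from -0.10 to 0.26 (negative without KO mouse 1 or WT mouse 2) and Muc13 probe 1 from -0.36 to 0.11 (positive without KO mouse 2 or WT mouse 1). Without WT mouse 1, Muc4 probes 2, 3 and 4 were lowest and negative, with ranges of -0.12 to 0.79, -0.20 to 0.93 and -0.14 to 0.68. In organoid KO over WT, Muc4 probe 3 ranged from -0.52 to 0.27 and Muc13 probe 2 from -0.028 to 0.49, negative without WT replicate 1, and Muc13 probe 1 was 0.029 with the authors' table and 0.0091 with outlier spots kept. In KOWI over WT, Muc1 was -0.010 with the scanner ratios and ranged from -0.27 to 0.46 over samples left out, and Muc4 probe 3 ranged from -0.70 to 0.023. In KOWI over KO, Muc4 probe 3 ranged from -0.68 to 0.11.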
